A study of Homo sapiens with 17 samples.

Results

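The 27 genes of cholesterol synthesis, uptake and transport described here were picked by symbol from the deposited gene counts. All 27 were found among 41040 named genes, and all 27 were among the 16891 genes with enough counts to be tested. They comprise 18 enzymes of synthesis, 5 genes of the system that senses sterols and sets the pathway's transcription, and 4 genes of cholesterol transport. The data are 17 bulk RNA-seq libraries from IMR-90 cells, a normal diploid fibroblast line from human fetal lung. Week 0 was the untreated control (n = 5). The week 1 and week 4 groups (n = 6 each) had 20 µM etoposide, a topoisomerase II poison that breaks DNA, for 48 h, and then stayed in drug-free culture until harvest. This exposure is used to make the cells senescent, and all groups share 1 cell line, with no genetic change given in the labels. No untreated cells were sampled after week 0, so the drug and the time in culture cannot be told apart. Whether the replicates came from separate cultures is not stated in the labels, and the p-values reflect only how far these libraries varied, possibly for technical reasons.

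Libraries held 77162364 to 102815295 counts over named genes. The fibroblast label matched its markers: 12 of them summed to 17950 to 20856 CPM (counts scaled to library size) at week 0, 25733 to 26686 CPM at week 1 and 31824 to 33624 CPM at week 4. This sum is mostly COL1A2, with a mean of 15909 CPM over all libraries, while S100A4 had 3.13 CPM. Against week 0, 5 of the 12 rose and 5 fell at week 1, and 8 rose and 2 fell at week 4. Of all tested genes, 32.9% rose and 34% fell at week 1, and 33.9% and 33.7% at week 4. Sums were at most 6.52 CPM for 9 epithelial and 0.970 CPM for 8 leukocyte markers. For 7 endothelial markers they were 5.73 to 6.73, 10.7 to 12.95 and 14.5 to 18.3 CPM at weeks 0, 1 and 4. PECAM1, CDH5, CLDN5 and ERG were each at 0 counts in at least 1 library and at no more than 79 in any. VWF, TIE1 and EGFL7 were never at 0, with 39 to 212, 115 to 983 and 197 to 733 counts. Of the 4 endothelial markers with enough counts to be tested, 3 rose and 1 fell at week 1, and 4 rose at week 4. Of all tested genes, 32.9% and 33.9% rose at these times. The sum of 10 proliferation genes was 2074 to 2301 CPM at week 0, 224 to 245 CPM at week 1 and 242 to 315 CPM at week 4. The part of these shifts in the results below was not tested. Week 0 replicates 1 and 4 stood apart from the other week 0 libraries, with 5.95% and 5.18% of counts on ribosomal protein genes against 3.17% to 3.84%. Results that rest on these 2 libraries are given with and without them. In bulk RNA, fewer cells of a kind and less RNA per cell cannot be told apart.

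Cells build cholesterol from acetyl-CoA through mevalonate, farnesyl diphosphate, squalene and lanosterol, or take it up in lipoproteins. When sterols in the endoplasmic reticulum are low, the escort protein SCAP carries the SREBP transcription factors to the Golgi, where they are cleaved and freed to switch on genes of synthesis and uptake. When sterols are high, INSIG proteins hold SCAP back, and oxysterols activate nuclear receptors that raise cholesterol efflux. Much of what is known of lipoprotein uptake and of cholesterol export from lysosomes was worked out in cultured fibroblasts.

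Most of the 27 genes were higher after etoposide than before it. At week 1, 20 of the 27 rose and 4 fell against week 0 (edgeR quasi-likelihood test, Benjamini-Hochberg adjusted p under 0.05), while 32.9% of all tested genes rose and 34% fell. The median log2 fold change of the 27 was 0.38, against -0.02 over all tested genes. Changes over 2-fold were made by 7 that rose and 1 that fell, beside 11.6% of all tested genes rising and 9.08% falling by that much. The libraries of week 1 and week 0 did not overlap for 20 of the 27, as for 48.7% of all tested genes.

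At week 4, 17 of the 27 rose and 5 fell against the same week 0 libraries, while 33.9% of all tested genes rose and 33.7% fell. The median log2 fold change was 0.32, against 0.00 over all tested genes. By over 2-fold, 6 rose and 1 fell, where 12.1% of all tested genes rose and 7.55% fell. No overlap between week 4 and week 0 libraries was seen for 19 of the 27, and for 49% of all tested genes. The share that rose was above the background in both comparisons, whereas the share that fell was below it and NPC1 alone fell by over 2-fold at either time. Both comparisons use the same week 0 libraries, so they are not independent of each other.

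**Figure D1:**
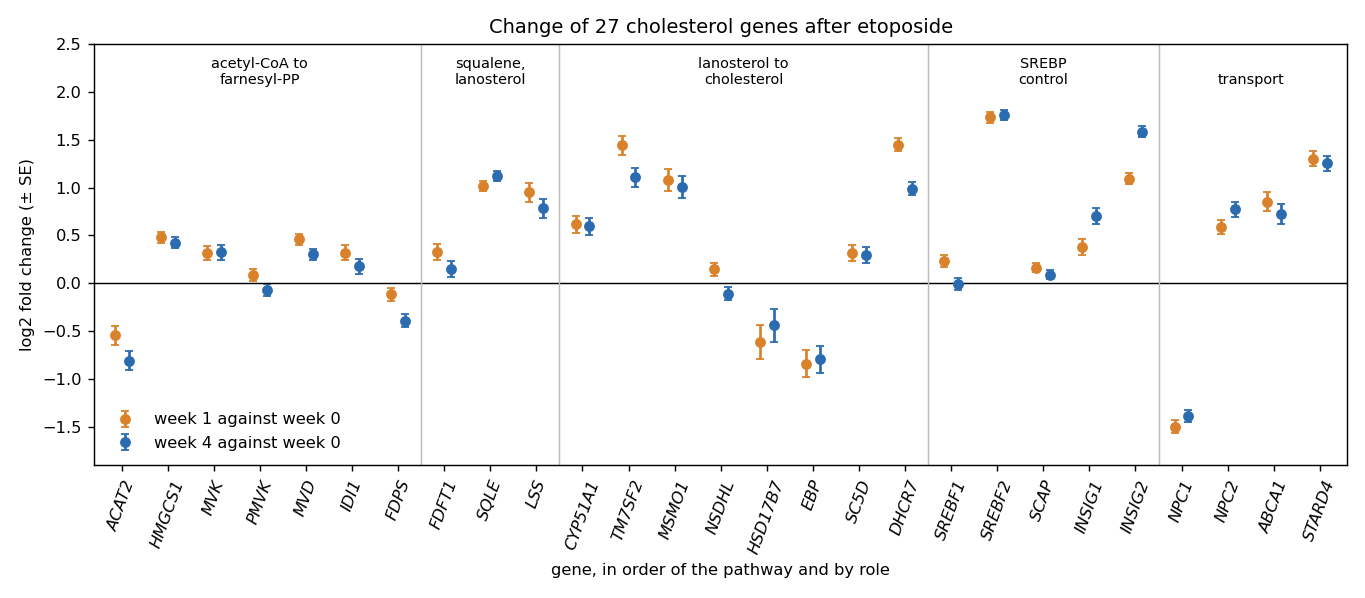
Log2 fold change (vertical axis, with its standard error) of each of the 27 genes, ordered by place in the pathway and by role along the horizontal axis, for week 1 and week 4 against week 0. SREBF2 stands highest, at 1.74 and 1.76, and NPC1 lowest, at -1.50 and -1.39, and most genes of synthesis lie above 0.

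The gene with the greatest rise was SREBF2, which encodes SREBP2, the SREBP form that chiefly drives cholesterol synthesis and uptake. Its 5 week 0 libraries held 49.3, 58.2, 48.6, 59.0 and 55.1 CPM. At week 1 the 6 libraries ran from 174 to 189 CPM with a median of 178 CPM, and at week 4 from 171 to 195 CPM with a median of 183 CPM. Every treated library was thus above every untreated one, and the ranges of weeks 1 and 4 overlapped. The log2 fold change was 1.74 (SE 0.06, 3.33-fold, adjusted p = 1.9e-17) at week 1 and 1.76 (SE 0.06, 3.38-fold, adjusted p = 1.9e-17) at week 4.

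The RefSeq promoter table (GRCh38.p14, 250 bases before to 50 after each start site) matched 24 of the 27 genes; ACAT2, FDFT1 and SQLE had no entry. Windows were searched on both strands for TCACNCCAC, a form of the sterol regulatory element to which SREBPs bind, for its inner part CACNCCAC, for CCAAT, the box of NF-Y, and for GGGCGG, the box of SP1. NF-Y and SP1 are known to act together with SREBPs. Of the matched genes, SREBF2 alone held TCACNCCAC, which occurs in 1.39% of all genes in the table. The SREBF2 window at chr22:41832855-41833154, on the plus strand, is shown since that gene rose most, with the TCACNCCAC match, whose first base lies 133 bases before the start site, and the CCAAT match (106 bases before it, read as ATTGG) in capitals:
SREBF2: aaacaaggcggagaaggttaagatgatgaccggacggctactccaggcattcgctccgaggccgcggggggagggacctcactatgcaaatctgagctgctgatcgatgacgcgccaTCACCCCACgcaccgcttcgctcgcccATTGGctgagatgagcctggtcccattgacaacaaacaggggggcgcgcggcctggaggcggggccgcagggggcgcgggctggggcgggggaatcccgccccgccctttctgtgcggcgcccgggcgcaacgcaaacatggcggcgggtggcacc

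Of the other control genes INSIG2 changed most. It encodes an endoplasmic reticulum protein that retains SCAP. It held 10.4, 9.90, 10.7, 11.0 and 10.9 CPM in the week 0 libraries, 21.4 to 25.1 CPM (median 22.2) at week 1 and 29.9 to 33.8 CPM (median 32.0) at week 4. The 3 groups did not overlap. The level rose 2.13-fold at week 1 (log2 fold change 1.09, SE 0.06, adjusted p = 6.7e-14) and further at week 4 (1.59, SE 0.06, adjusted p = 1.3e-16).

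INSIG1, the paralogue that is itself a classical SREBP target, held 7.53 to 10.4 CPM at week 0, 10.4 to 13.2 CPM at week 1 and 14.3 to 16.3 CPM at week 4. Its log2 fold change was 0.38 (SE 0.08, adjusted p = 0.00031) at week 1 and 0.70 (SE 0.08, adjusted p = 1.1e-07) at week 4. The highest week 0 library, at 10.36 CPM, lay just below the lowest week 1 library, at 10.42 CPM.

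SREBF1, whose products SREBP1a and SREBP1c are tied more to fatty acid synthesis, held 28.4 to 36.0 CPM at week 0, 35.6 to 41.9 CPM at week 1 and 28.9 to 35.1 CPM at week 4. It rose at week 1 (log2 fold change 0.24, SE 0.06, adjusted p = 0.0020), with overlapping libraries, and was not called at week 4 (-0.01, SE 0.06, adjusted p = 0.93). SCAP, the escort protein, rose by 0.16 on the log2 scale at week 1 (SE 0.05, adjusted p = 0.0056) and had a log2 fold change of 0.09 at week 4 (SE 0.05, adjusted p = 0.11). The call for SCAP at week 1 was lost without week 0 replicates 1 and 4, which were its lowest libraries (log2 fold change 0.07, adjusted p = 0.075). Both changes were of the order of the scaling: on library totals without TMM factors, all tested genes together had a median log2 difference of -0.18 at week 1 and -0.19 at week 4, and all changes here are relative to the TMM scale.

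The 4 transport genes all changed, and at each time 3 rose and 1 fell. Of all tested genes, 32.9% rose and 34% fell at week 1, and 33.9% rose and 33.7% fell at week 4. NPC1, the membrane protein that moves cholesterol out of lysosomes, fell. It held 71.9, 90.0, 81.8, 96.9 and 92.5 CPM in the week 0 libraries, 29.1 to 32.0 CPM (median 31.0) at week 1 and 30.1 to 35.5 CPM (median 33.3) at week 4. The highest treated library lay far below the lowest untreated one. NPC1 was 2.82-fold lower at week 1 (log2 fold change -1.50, SE 0.07, adjusted p = 6.8e-15) and 2.61-fold lower at week 4 (-1.39, SE 0.07, adjusted p = 3.1e-14).

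NPC2, the soluble lysosomal protein that hands cholesterol to NPC1, went the other way. It held 43.9, 35.8, 46.0, 34.8 and 32.8 CPM at week 0, 55.5 to 61.1 CPM (median 57.9) at week 1 and 59.1 to 71.9 CPM (median 66.5) at week 4. It rose at week 1 (log2 fold change 0.59, SE 0.07, adjusted p = 3.4e-07) and at week 4 (0.77, SE 0.07, adjusted p = 5.1e-09), with no overlap with week 0.

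STARD4, a cytosolic sterol carrier whose transcription follows SREBP2, held 14.1, 11.5, 14.9, 10.48 and 11.9 CPM at week 0, 28.3 to 34.2 CPM at week 1 and 27.7 to 31.8 CPM at week 4. It rose 2.47-fold at week 1 (log2 fold change 1.30, SE 0.08, adjusted p = 1.7e-12) and 2.38-fold at week 4 (1.25, SE 0.08, adjusted p = 3.9e-12). ABCA1, the transporter that loads cholesterol onto apolipoprotein A-I, held 30.2, 49.98, 38.0, 49.0 and 41.3 CPM at week 0. Its week 1 libraries spread from 65.2 to 86.1 CPM and its week 4 libraries from 66.5 to 74.4 CPM, all above week 0. The log2 fold change of ABCA1 was 0.85 (SE 0.10, adjusted p = 1.2e-07) at week 1 and 0.72 (SE 0.10, adjusted p = 1.4e-06) at week 4. Without week 0 replicates 1 and 4, the libraries with the lowest ABCA1, the log2 fold changes were 0.68 and 0.56, and both calls held.

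The NPC1 promoter window at chr18:23586457-23586756, on the minus strand, is shown since NPC1 fell most of the 27. It held no match to TCACNCCAC, CACNCCAC or CCAAT, and so has no capitals, and it held 2 matches to GGGCGG:
NPC1: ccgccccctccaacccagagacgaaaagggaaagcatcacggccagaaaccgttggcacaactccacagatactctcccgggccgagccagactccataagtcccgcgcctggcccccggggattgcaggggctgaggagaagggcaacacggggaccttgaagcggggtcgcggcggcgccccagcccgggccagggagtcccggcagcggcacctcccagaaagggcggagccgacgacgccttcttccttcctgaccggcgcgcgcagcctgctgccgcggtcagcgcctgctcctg

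**Figure D2:**
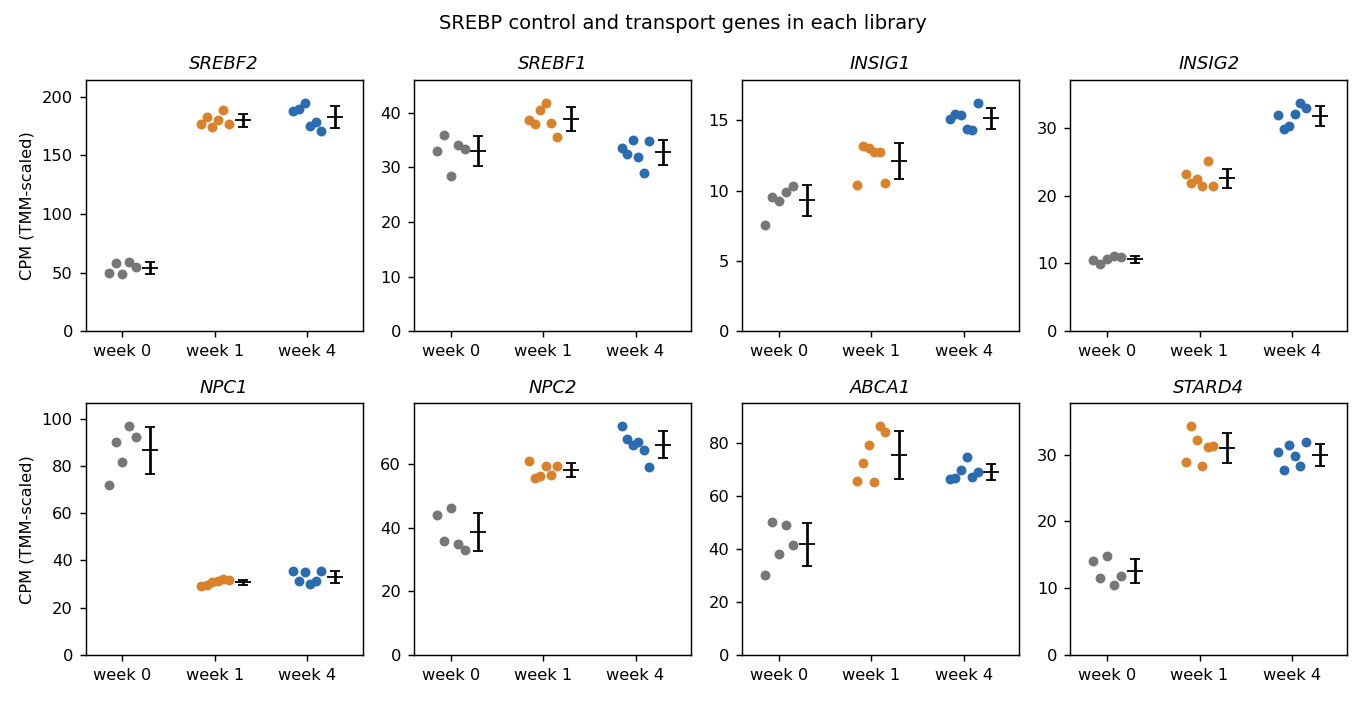
Level in CPM on TMM-scaled library sizes (vertical axis) of 4 control and 4 transport genes in each library (points) at weeks 0, 1 and 4, with the mean and SD of each group as bars. SREBF2 and NPC1 separate week 0 from both later groups in opposite directions, and INSIG2 separates all 3 groups.

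The mevalonate steps showed small changes. HMGCS1, which makes HMG-CoA, held 15.2 to 17.2 CPM at week 0, 21.2 to 24.6 CPM at week 1 and 20.4 to 24.0 CPM at week 4. It rose 1.40-fold at week 1 (log2 fold change 0.48, SE 0.06, adjusted p = 1.3e-07) and 1.34-fold at week 4 (0.42, SE 0.06, adjusted p = 9.2e-07), with no overlap with week 0 at either time. MVD, the decarboxylase that forms isopentenyl diphosphate, rose 1.37-fold at week 1 (adjusted p = 2.9e-07) and 1.24-fold at week 4 (adjusted p = 6.6e-05), again without overlap (17.7 to 22.3 CPM at week 0, 27.2 to 29.2 CPM at week 1, 23.0 to 26.8 CPM at week 4). MVK, mevalonate kinase, rose 1.25-fold at both times (adjusted p = 0.00079 and 0.00069), with 6.36 to 7.54 CPM at week 0, 8.22 to 9.29 CPM at week 1 and 7.84 to 10.1 CPM at week 4.

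IDI1, the isomerase of isopentenyl diphosphate, rose 1.25-fold at week 1 (adjusted p = 0.0012). At week 4 it stood at the threshold (log2 fold change 0.18, SE 0.08, adjusted p = 0.050), and its libraries overlapped, with 21.9 to 25.3 CPM at week 4 and 16.8 to 23.9 CPM at week 0. That call was lost in 16 of 28 other settings, whereas without week 0 replicates 1 and 4 the log2 fold change was 0.33 (adjusted p = 0.00019). PMVK, phosphomevalonate kinase, was not called at week 1 (log2 fold change 0.08, adjusted p = 0.26) or week 4 (-0.07, adjusted p = 0.35). FDPS, which makes farnesyl diphosphate, the branch point to protein prenylation, was not called at week 1 (-0.12, adjusted p = 0.13) and fell at week 4 (-0.39, SE 0.07, adjusted p = 2.3e-05). FDPS held 31.1 to 37.7 CPM at week 4 and 40.8 to 53.8 CPM at week 0. GENCODE v29, which is not known to be the authors' annotation, names 8 FDPS pseudogenes, so its reads may be split among near-identical copies.

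ACAT2, the cytosolic thiolase that joins acetyl-CoA units at the head of the pathway, fell. It held 33.3, 24.0, 29.5, 21.1 and 20.5 CPM at week 0, 16.7 to 19.5 CPM (median 17.1) at week 1 and 13.7 to 15.5 CPM (median 14.6) at week 4. None of the treated libraries reached the lowest untreated one. It was 1.46-fold lower at week 1 (log2 fold change -0.54, SE 0.10, adjusted p = 3.3e-05) and 1.75-fold lower at week 4 (-0.81, SE 0.10, adjusted p = 1.6e-07). Without week 0 replicates 1 and 4, the libraries with the highest ACAT2, the log2 fold changes were -0.32 and -0.58 and both calls held. In GENCODE v29 the exons of ACAT2 overlap those of 3 genes on the other strand, over 33.9% of its exonic bases for SOD2-OT1, 26.5% for SOD2 and 9.23% for TCP1. Without a stated strand setting, reads there cannot be told apart.

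SQLE, LSS and FDFT1 make lanosterol from farnesyl diphosphate, and all 3 rose at week 1, as did 32.9% of all tested genes. SQLE, squalene epoxidase, held 27.9, 32.8, 31.4, 29.4 and 33.6 CPM at week 0, 59.8 to 65.3 CPM (median 62.8) at week 1 and 65.2 to 71.1 CPM (median 67.4) at week 4. Both treated groups stood wholly above week 0. It rose 2.02-fold at week 1 (log2 fold change 1.02, SE 0.05, adjusted p = 2.8e-14) and 2.17-fold at week 4 (1.12, SE 0.05, adjusted p = 6.2e-15). LSS, the cyclase that closes the sterol rings, held 3.40 to 5.11 CPM at week 0, 7.81 to 10.2 CPM at week 1 and 7.41 to 8.97 CPM at week 4. Its fold changes were 1.93 at week 1 (adjusted p = 2.4e-08) and 1.72 at week 4 (adjusted p = 4.7e-07), with no overlap. Without week 0 replicates 1 and 4 the log2 fold changes of LSS were 0.81 and 0.65 in place of 0.95 and 0.78, both still called.

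FDFT1, squalene synthase, joins 2 farnesyl diphosphates and commits carbon to sterols. It was called at week 1 (log2 fold change 0.33, SE 0.08, adjusted p = 0.0018) and not at week 4 (0.15, SE 0.08, adjusted p = 0.12). Its week 0 libraries spread widely, at 74.9, 59.8, 84.0, 61.1 and 51.3 CPM, while week 1 libraries held 80.9 to 86.3 CPM and week 4 libraries 67.8 to 78.9 CPM. The highest week 0 libraries were replicates 4 and 1. Without them FDFT1 rose at both times, with log2 fold changes of 0.53 (adjusted p = 5.2e-09) and 0.35 (adjusted p = 2.6e-06).

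Among the 8 genes between lanosterol and cholesterol, 5 rose and 2 fell at each time. Of all tested genes, 32.9% rose and 34% fell at week 1, and 33.9% rose and 33.7% fell at week 4. DHCR7, which makes cholesterol in the last step of one branch of the pathway, held 18.1, 22.7, 20.3, 23.0 and 24.3 CPM at week 0. It held 56.4 to 61.1 CPM (median 59.6) at week 1 and 39.6 to 47.7 CPM (median 42.7) at week 4, and the 3 groups did not overlap. It rose 2.72-fold at week 1 (log2 fold change 1.45, SE 0.07, adjusted p = 1.5e-14) and 1.99-fold at week 4 (0.99, SE 0.07, adjusted p = 1.3e-11).

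TM7SF2, a sterol reductase, was the least abundant per length at week 0 and rose 2.72-fold at week 1 (log2 fold change 1.44, SE 0.10, adjusted p = 1.6e-11) and 2.16-fold at week 4 (1.11, SE 0.10, adjusted p = 1.6e-09). Its level was 1.89 to 2.16 CPM at week 0, 5.09 to 6.25 CPM at week 1 and 3.33 to 4.84 CPM at week 4, with no overlap among the 3. MSMO1, the sterol methyl oxidase, held 24.3, 18.3, 25.9, 14.9 and 16.7 CPM at week 0, 39.4 to 46.8 CPM at week 1 and 33.7 to 44.8 CPM at week 4. It rose 2.11-fold at week 1 (adjusted p = 2.3e-08) and 2.01-fold at week 4 (adjusted p = 7.1e-08), and without week 0 replicates 1 and 4 the log2 fold changes were 1.34 and 1.27 in place of 1.08 and 1.01.

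CYP51A1, the lanosterol demethylase, rose 1.53-fold at week 1 (adjusted p = 3e-06) and 1.51-fold at week 4 (adjusted p = 5e-06), with 4.14 to 5.08 CPM at week 0, 6.11 to 7.76 CPM at week 1 and 5.98 to 8.17 CPM at week 4. In GENCODE v29 another protein-coding gene covers 79.4% of its exonic bases on the same strand, and 3 pseudogenes carry its name, so its counts are uncertain. SC5D, the sterol desaturase, rose 1.24-fold at week 1 (adjusted p = 0.0020) and 1.23-fold at week 4 (adjusted p = 0.0030). The overlap at both times came from week 0 replicate 4, at 35.7 CPM. Without week 0 replicates 1 and 4 the log2 fold changes of SC5D were 0.47 (adjusted p = 2.7e-06) and 0.45 (adjusted p = 4.5e-06). NSDHL, a dehydrogenase that works with MSMO1 in removing methyl groups, was not called at week 1 (log2 fold change 0.15, SE 0.07, adjusted p = 0.058) or week 4 (-0.11, SE 0.07, adjusted p = 0.16). Its week 1 rise was called without week 0 replicates 1 and 4 (0.24, adjusted p = 0.0029).

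EBP, the sterol isomerase, fell. It held 8.45, 5.91, 9.30, 5.16 and 5.69 CPM at week 0, 2.83 to 5.08 CPM (median 3.82) at week 1 and 3.76 to 4.25 CPM (median 3.99) at week 4. The week 0 libraries all lay above the treated ones. EBP was 1.79-fold lower at week 1 (log2 fold change -0.84, SE 0.14, adjusted p = 2e-05) and 1.73-fold lower at week 4 (-0.79, SE 0.14, adjusted p = 4e-05). Without week 0 replicates 1 and 4 the log2 fold changes were -0.54 and -0.49, both still called.

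HSD17B7, the sterol ketone reductase, gave a fall that rested on 2 libraries. It held 8.99, 5.13, 6.42, 3.75 and 3.69 CPM at week 0, 2.74 to 4.37 CPM at week 1 and 3.71 to 4.95 CPM at week 4, so that all groups overlapped. The log2 fold change was -0.61 (SE 0.18, adjusted p = 0.0040) at week 1 and -0.44 (SE 0.18, adjusted p = 0.032) at week 4. Without week 0 replicates 1 and 4 it was -0.20 (adjusted p = 0.18) and -0.03 (adjusted p = 0.88), and no call was left. GENCODE v29 also names 2 HSD17B7 pseudogenes that could share its reads.

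**Figure D3:**
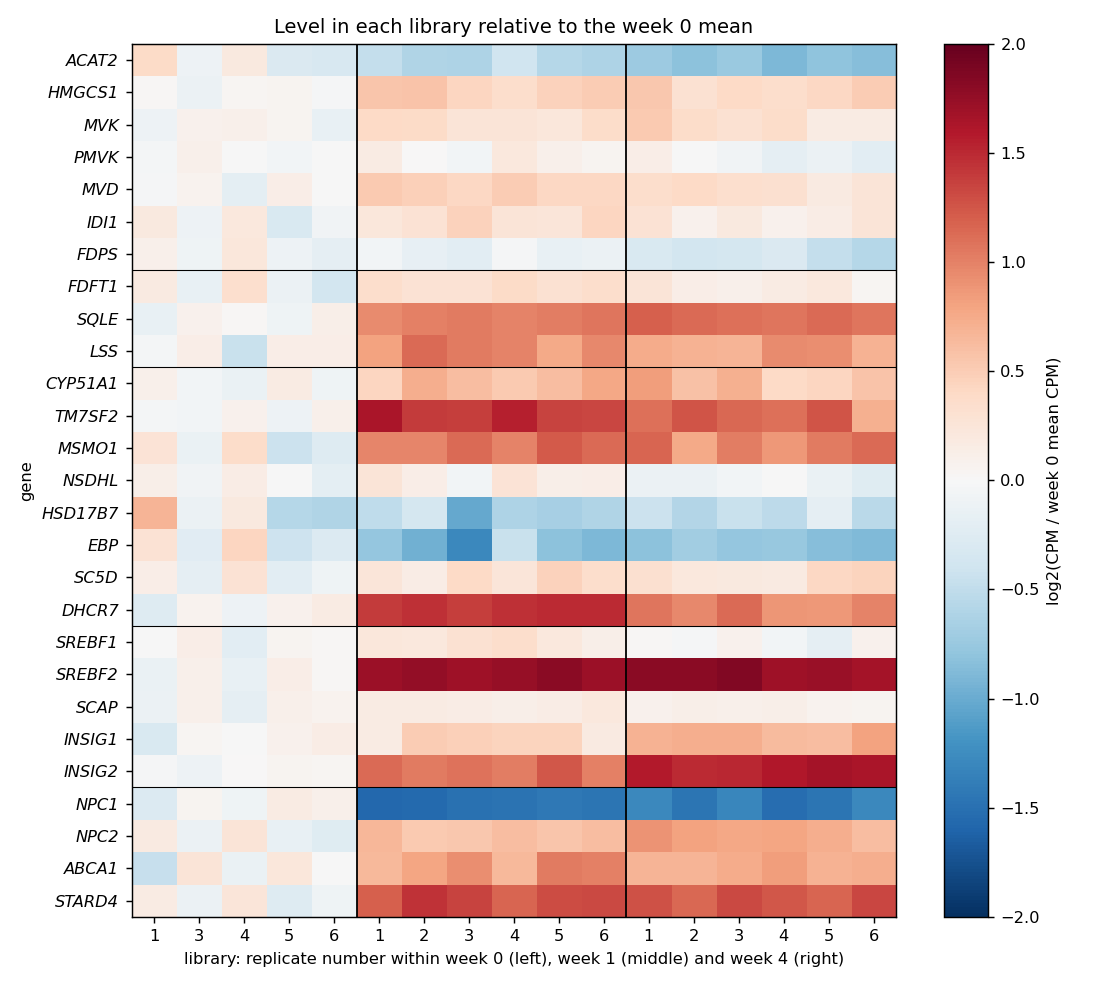
Level of each of the 27 genes (rows, in pathway order) in each of the 17 libraries (columns) as log2 of CPM over the week 0 mean, with red above and blue below that mean. SREBF2, DHCR7, TM7SF2 and STARD4 are red in each treated library, NPC1, ACAT2 and EBP are blue, and week 0 replicates 1 and 4 differ from replicates 3, 5 and 6 in genes such as HSD17B7, EBP and MSMO1.

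DHCR7 has 2 promoter windows, and the one at chr11:71448994-71449293 held no match to TCACNCCAC, CACNCCAC or CCAAT. The other DHCR7 window, at chr11:71448344-71448643, on the minus strand, is shown as that of the synthesis enzyme with the greatest rise at week 1. It held no match to TCACNCCAC or CACNCCAC and 2 to CCAAT, in capitals, which begin 94 bases and, read as ATTGG, 48 bases before the start site:
DHCR7: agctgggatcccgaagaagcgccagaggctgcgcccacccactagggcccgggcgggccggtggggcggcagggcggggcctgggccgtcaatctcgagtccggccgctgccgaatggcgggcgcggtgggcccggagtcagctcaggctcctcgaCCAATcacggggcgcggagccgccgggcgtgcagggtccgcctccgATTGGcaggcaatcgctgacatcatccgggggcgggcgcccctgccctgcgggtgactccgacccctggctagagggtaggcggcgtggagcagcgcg

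The boxes were common in the promoters of the group. CCAAT occurred in 17 of the 24 matched genes (70.8%), against 39.7% of all genes in the table, and GGGCGG in 23 of 24 (95.8%), against 48.3%. The 24 all had enough counts to be tested, whereas the 27305 genes of the table were not limited to such genes. Shares among tested genes alone were not computed. The 7 genes without CCAAT were SCAP, SREBF1, INSIG2, PMVK, CYP51A1, NPC1 and ABCA1. CACNCCAC, which lies inside TCACNCCAC, occurred in 5 genes (20.8%, against 7.05% of all genes): SREBF2, INSIG1, ABCA1, IDI1 and SC5D. Among the genes with CCAAT are EBP and HSD17B7, which fell, as well as MSMO1, LSS and STARD4, which rose. A gene counts once however many windows it has, and a match to letters is not a bound site. Only exact letters were searched, so the lack of a match does not show the lack of a site.

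Levels can be compared between genes only per length, here as RPKM, which is CPM divided by the deposited gene length in kilobases. How these lengths were counted is not stated, so the ranks hold only for the deposited lengths, such as 1002 bases for PMVK and 9018 for MVK. At week 0 the highest levels were those of PMVK at 16.8, NPC2 at 14.96 and FDFT1 at 13.03 RPKM, and the lowest those of LSS at 0.641 and TM7SF2 at 0.593 RPKM. SREBF2 was rank 11 of the 27 at week 0, with 6.71 RPKM, and rank 2 at weeks 1 and 4, with 22.3 and 22.7 RPKM. NPC1 went the other way in rank, at 8 with 8.92 RPKM at week 0, 21 with 3.16 RPKM at week 1 and 20 with 3.41 RPKM at week 4. NPC2 was at the top in both treated groups, with 22.4 RPKM at week 1, next to SREBF2 at the same time, and 25.5 RPKM at week 4. Within synthesis, SQLE averaged 7.20 RPKM at week 0, 14.6 RPKM at week 1 and 15.7 RPKM at week 4.

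Summed over the 18 enzymes, the level was 336 to 415 CPM at week 0, 493 to 511 CPM at week 1 and 444 to 484 CPM at week 4. The 3 ranges did not overlap on this TMM scale. On plain library totals they were 372 to 447 CPM, 481 to 496 CPM and 423 to 457 CPM, so that weeks 0 and 4 overlapped. The highest week 0 sums were those of replicates 4 and 1, at 415 and 399 CPM on the TMM scale. This sum is weighted to abundant genes such as FDFT1 and SQLE.

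Week 4 was also set against week 1, a comparison of the treated times in which week 0 enters only the shared estimate of spread. Here 3 of the 27 rose, INSIG1, INSIG2 and NPC2, and 7 fell, where 21.8% of all tested genes rose and 18.6% fell. The genes that fell were ACAT2, MVD, FDPS, TM7SF2, NSDHL, DHCR7 and SREBF1. None passed 2-fold, and the libraries did not overlap for 10 of the 27, as for 30.2% of all tested genes. The median log2 fold change was -0.07, against 0.01 over all tested genes. Of the 18 synthesis enzymes none rose and 6 fell.

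DHCR7 had the greatest fall, with 39.6 to 47.7 CPM at week 4 against 56.4 to 61.1 CPM at week 1 (log2 fold change -0.46, SE 0.06, 1.37-fold lower, adjusted p = 3.9e-06). It stayed higher at week 4 than at week 0. TM7SF2 was 1.26-fold lower at week 4 than at week 1 (adjusted p = 0.0048) and FDPS 1.21-fold lower (adjusted p = 0.0015). ACAT2 was 1.20-fold lower (adjusted p = 0.028), NSDHL 1.19-fold lower (adjusted p = 0.0027) and MVD 1.11-fold lower (adjusted p = 0.028). SREBF1 was 1.18-fold lower (adjusted p = 0.0021) and at week 4 lay within the range of week 0.

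INSIG2 had the greatest rise, 1.41-fold (log2 fold change 0.49, SE 0.05, adjusted p = 9.1e-08), and INSIG1 rose 1.25-fold (0.32, SE 0.08, adjusted p = 0.0018). NPC2 rose 1.14-fold with overlap (0.19, SE 0.07, adjusted p = 0.037). SREBF2, which rose most against week 0, showed a log2 difference of 0.02 between the treated times (SE 0.05, adjusted p = 0.75), and NPC1 one of 0.11 (SE 0.06, adjusted p = 0.18). The calls of NPC2, MVD and ACAT2 were lost in 8, 6 and 4 of 28 other settings. With week 0 replicates 1 and 4 left out of the estimate of spread, 16 of the 27 were called, 5 that rose and 11 that fell, where 24.9% of all tested genes rose and 22.8% fell in that fit.

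Week 0 replicates 1 and 4 lay outside the range of replicates 3, 5 and 6 for 20 of the 27 genes, higher in 11 and lower in 9. Of all 16891 tested genes, 3758 were higher and 4870 lower in the same way. The widest differences on the log2 scale were 0.88 for HSD17B7, 0.67 for EBP, 0.59 for MSMO1 and 0.52 for ACAT2, all higher in replicates 1 and 4. The widest in the other direction were -0.45 for ABCA1 and -0.37 for LSS. These samples also had the highest share of ribosomal protein counts, and its part in these differences was not tested. Without replicates 1 and 4, 23 of the 27 were called at week 1 (20 rose, 3 fell) and 22 at week 4 (18 rose, 4 fell). In that fit 32.7% of all tested genes rose and 32.1% fell at week 1, and 33.1% and 31.8% at week 4. Of the falling genes NPC1, ACAT2 and EBP kept both calls, FDPS kept its call at week 4 (log2 fold change -0.27, adjusted p = 0.00016), and HSD17B7 lost both.

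**Figure D4:**
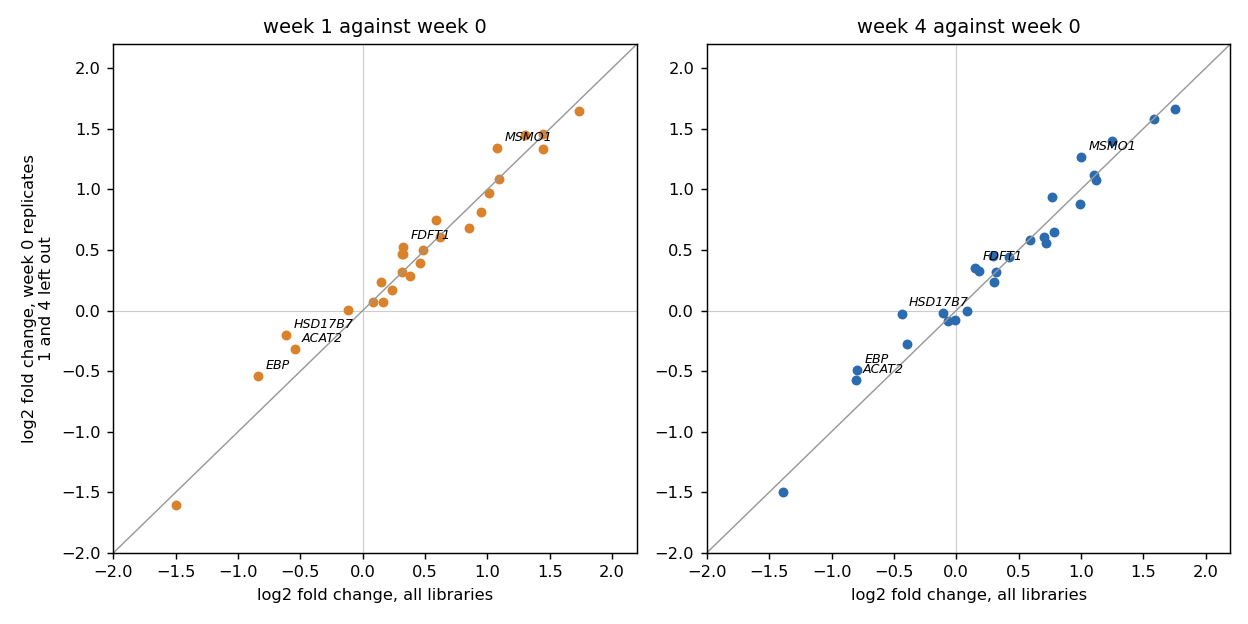
Log2 fold change of each of the 27 genes without week 0 replicates 1 and 4 (vertical axis) against that with all libraries (horizontal axis), at week 1 (left) and week 4 (right), with the line of equal values. HSD17B7, EBP, ACAT2, FDFT1 and MSMO1 lie farthest above the line, and ABCA1 and LSS farthest below it. SREBF2 and NPC1 stay at the ends of the range.

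Other genes around the pathway were taken from 8 lists of 94 genes, of which 91 were tested in the same fit. Each gene named from them below passed it, the weakest call being that of NR1H3 at week 4 (adjusted p = 0.0015). Their counts stand beside 32.9% of all tested genes that rose and 34% that fell at week 1, and 33.9% and 33.7% at week 4. No difference between lists was tested. Lipoprotein receptors and their partners mostly rose: of 10 tested, 8 rose and none fell at week 1, and 7 rose and 1 fell at week 4, with median log2 fold changes of 0.76 and 0.83 against -0.02 and 0.00 over all tested genes. LRP1, a large receptor for remnant lipoproteins, had a mean of 653 ± 108 CPM at week 0, of 1945 ± 210.3 CPM at week 1 and of 2539 ± 71.1 CPM at week 4 (SD, n = 5, 6 and 6), and rose 2.98-fold and 3.89-fold. VLDLR, the very low density lipoprotein receptor, rose 1.96-fold at week 4. OLR1, a scavenger receptor for oxidized lipoprotein, rose 3.20-fold at week 1 and 2.13-fold at week 4.

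Genes of fatty acid synthesis, another output of SREBPs, rose in 8 of 10 and fell in 1 at week 1, and rose in 7 and fell in 1 at week 4 (medians 0.45 and 0.33). Of all tested genes, 32.9% rose and 34% fell at week 1, and 33.9% and 33.7% at week 4. SCD, the stearoyl-CoA desaturase, rose 1.89-fold at week 1 and 2.48-fold at week 4. The 11 genes that process or degrade SREBP system proteins gave 3 that rose and 5 that fell at week 1, and 2 and 5 at week 4 (medians -0.12 and -0.03). MBTPS1, the first protease to cleave SREBPs, rose 1.41-fold at week 1 and 1.43-fold at week 4, and ERLIN1, which helps degrade sterol-regulated proteins, was 1.85-fold and 1.56-fold lower.

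The branches that use farnesyl diphosphate for other products gave 2 of 13 that rose and 5 that fell at week 1, and 2 and 7 at week 4 (medians -0.09 and -0.21). Of all tested genes, 32.9% rose and 34% fell at week 1, and 33.9% and 33.7% at week 4. COQ2, of ubiquinone synthesis, was 2.78-fold lower at week 1 and 2.85-fold lower at week 4. Of 8 further genes tied to sterol enzymes, 3 rose and 3 fell at each time (medians 0.10 and -0.05), and LBR, a lamin receptor that is also a sterol reductase like TM7SF2, was 3.47-fold lower at week 1 and 2.77-fold lower at week 4. LBR had a mean of 68.5 ± 2.70 CPM at week 0, of 19.8 ± 0.969 CPM at week 1 and of 24.7 ± 2.23 CPM at week 4, whereas TM7SF2 rose at both times.

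Of 11 tested genes of oxysterol-sensing receptors and efflux, 4 rose and 5 fell at week 1, and 3 rose and 6 fell at week 4 (medians -0.18 and -0.14). The shares of all tested genes were 32.9% that rose and 34% that fell at week 1, and 33.9% and 33.7% at week 4. ABCA2, a transporter of endosomes and lysosomes, rose 3.06-fold at week 1 and 3.45-fold at week 4. NR1H3, which encodes the receptor LXR alpha, was 1.93-fold lower at week 1 and 1.34-fold lower at week 4, while NR1H2, which encodes LXR beta, rose 1.43-fold and 1.26-fold. Of 22 genes of cholesterol storage and transfer, 12 rose and 5 fell at week 1, and 11 rose and 5 fell at week 4 (median 0.18 at both). TMEM97, which binds NPC1, was 3.004-fold lower at week 1 and 2.72-fold lower at week 4, and PLIN2, a coat protein of lipid droplets, rose 2.13-fold at week 4. Of 6 tested genes that make or use oxysterols, 3 rose and 1 fell at week 1, and 4 rose and 1 fell at week 4 (medians 0.27 and 0.36). Most of these called genes were near the floor, with means of no more than 1.33 CPM in every group.

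**Figure D5:**
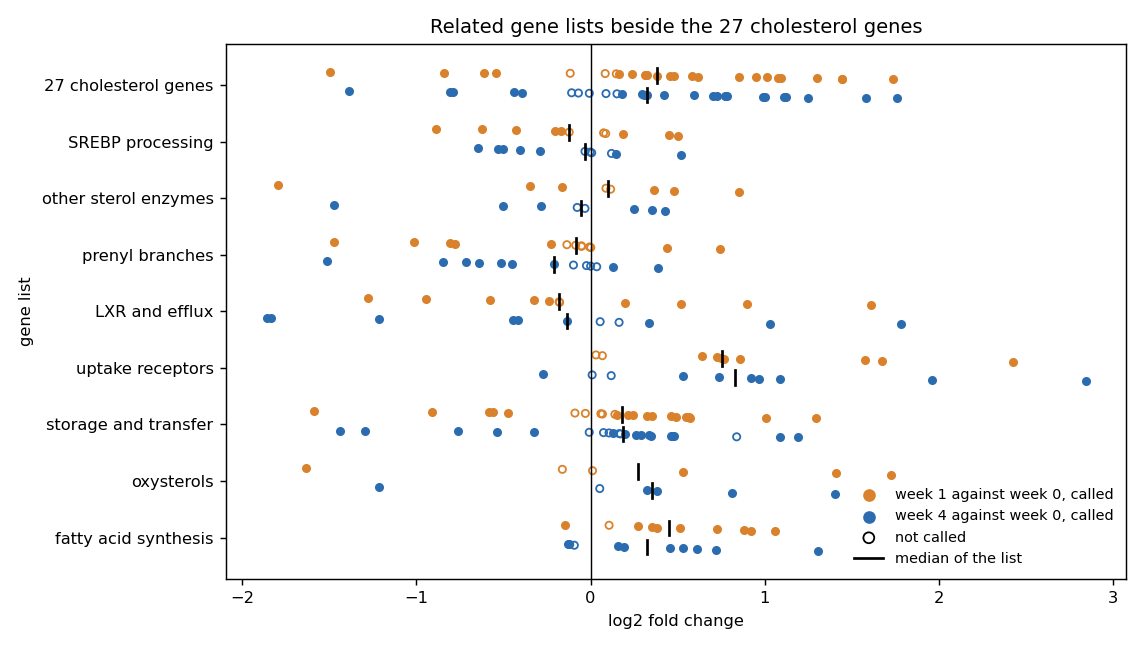
Log2 fold change (horizontal axis) of the 27 genes and of 8 related lists (vertical axis) at week 1 and week 4 against week 0, with filled points for genes called, open points for those not called and a bar at each list's median. The medians of the 27 genes, 0.38 and 0.32, lie above 0. So do both medians of uptake receptors, fatty acid synthesis, storage and transfer, and oxysterols.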

How the data were processed

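Bulk RNA-seq of 17 IMR-90 libraries was grouped by the labels' titles into week 0 (n = 5), week 1 (n = 6) and week 4 (n = 6). RNA was column-purified with DNase, per the labels' protocols. The authors deposited raw gene counts by symbol, 1 file per library, and 4 files also hold a gene length. HISAT2 2.0.5.2, featureCounts 1.4.6 and mm10, a mouse build, are named in the submitters' processing notes. Since the symbols are human, the build used for counting is unclear and gives no coordinates here. The sources used here do not give the annotation, the strand setting or the handling of multimapping reads.

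An unnamed entry, with 0.221% to 0.289% of counts, was left out. In edgeR 4.0.16 (R 4.3.3), 16891 genes passed filterByExpr, TMM factors lay between 0.938 and 1.11, and the quasi-likelihood fit took all 17 libraries with 1 mean for each group. The 3 comparisons were each adjusted by Benjamini-Hochberg over all tested genes, and a gene with an adjusted p under 0.05 was called. The SE is the log2 fold change over the square root of F, and the biological coefficient of variation was 11.7%. Levels are CPM on TMM-scaled totals unless said otherwise, and marker and proliferation sums use plain totals. No pair of libraries of a group agreed within sampling noise (chi-square per gene at least 7.62 over 40 pairs). The methods were tested on simulated data.

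All 27 genes are named. From each related list up to 3 genes per direction qualified, those called with the largest changes and at least 5 CPM in a group, and only some are given. The 27 genes and the lists were chosen with earlier results of these data known. Not every gene of the pathway is reported here. Promoters come from RefSeq (GRCh38.p14), and exon overlaps from GENCODE v29. The alternatives were DESeq2 1.42.0, limma-voom (limma 3.58.1), scaling by RLE or upper quartiles, no filter, a stricter filter (5 CPM in 5 libraries), a 1.5-fold minimum, a block for replicate number, fits limited to the groups compared, a term for file layout, the 13 libraries without lengths alone, and libraries left out.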

Additional observations from a re-analysis of the deposited data

Results flagged for a closer look

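Within groups, 81 sets of libraries (27 genes in 3 groups) were checked for a library far from the others, and 2 were found, where chance alone flags about 1 in 20. TM7SF2 at week 4 was lowest in replicate 6, at 3.33 CPM, with the next library at 4.33 CPM. HSD17B7 at week 4 was highest in replicate 5, at 4.95 CPM, with the next at 4.17 CPM.

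For 10 genes the effect against week 0 differed between the treated times, by the edgeR quasi-likelihood test of week 4 against week 1 with Benjamini-Hochberg adjustment. These are the calls already given above for that comparison, 3 that rose and 7 that fell. In the same test 21.8% of all tested genes rose and 18.6% fell. Whether the number of calls differs from that background was not tested. The week 4 effect minus the week 1 effect, on the log2 scale, was -0.46 for DHCR7, -0.33 for TM7SF2, -0.28 for FDPS, -0.26 for ACAT2, -0.26 for NSDHL, -0.24 for SREBF1 and -0.15 for MVD. It was 0.49 for INSIG2, 0.32 for INSIG1 and 0.19 for NPC2.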

How the results depend on the processing

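Under the alternatives run, up to 28 for each gene and comparison, no called gene changed direction. Of the 27 genes, 24 were called at week 1 and 22 at week 4 against week 0, and 10 at week 4 against week 1. In that main fit 32.9%, 33.9% and 21.8% of all tested genes rose in these comparisons, and 34%, 33.7% and 18.6% fell. Apart from the fit without week 0 replicates 1 and 4, no such share is given for the alternatives. Their counts show only how the calls of the 27 genes varied. Counts moved by over 1.5 times in few settings: asking for a 1.5-fold change too left 14 calls (11 rose, 3 fell) at week 1 and 0 at week 4 against week 1. It left 15 at week 4 against week 0, a smaller move. With only the groups compared in the fit, 17 genes were called at week 4 against week 1, and without week 0 replicates 1 and 4, 16. In the latter fit 24.9% of all tested genes rose and 22.8% fell in that comparison. The other settings gave 23 to 26 calls, 20 to 23 and 9 to 11. Leaving out 1 library in turn gave 24 to 25, 20 to 22 and 8 to 12. DESeq2 called 25, 22 and 11. Among the 13 libraries whose files hold no gene length the calls were 24, 23 and 9; the other 4 hold only week 0 and week 1 libraries and were not fitted alone. IDI1 at week 4 lost its call in 16 of 28 settings and HSD17B7 at week 4 in 9 of 27, one of them without replicate 1 of week 0 (log2 fold change -0.20, adjusted p = 0.22). The cause was not tested. The stricter filter removed TM7SF2 and HSD17B7, which then had no value.

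Same-numbered libraries did not vary together: their correlations ran from -0.026 to 0.067, -0.0084 to 0.037 and -0.038 to 0.024 in the 3 comparisons. With the replicate block, 25, 23 and 11 of the 27 genes were called. Depth limits TM7SF2 most: its lowest library held 183 counts.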
